A study of Mus musculus with 8 samples.

Results

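Transforming growth factor beta (TGF-beta) signalling was followed through its ligand, receptors, Smad proteins and a corepressor in menin-deficient pro-B cells. The members were taken from a set of 10 genes (Tgfb1, Tgfbr1, Tgfbr2, Smad1, Smad2, Smad3, Smad4, Smad5, Smad7 and Skil), by collecting every probe set whose platform annotation names 1 of them alone. This gave 26 of the 45037 probe sets on the array, for all 10 of these genes among 18193 named ones. The menin-deficient mice were Rag1-cre;MenF/F animals, in which Cre is driven from Rag1, a gene of lymphoid progenitors, and both Men1 alleles are floxed (n = 4). The control mice were MenF/F animals, which carry the same floxed alleles without Cre (n = 4). In both groups n counts arrays. All were 2 to 3 weeks old and received no treatment named in the labels. Cre was carried by the menin-deficient genotype alone, and a Cre effect cannot be told apart from that of the deletion.

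The sorted bone marrow cells were pro-B cells of Fraction B (B220+CD43+HSA+BP-1-), and 1 expression array was made per labelled biological replicate. Whether a replicate was 1 mouse or a pool was not stated. Log2 values ran between 2.08 and 17.4. The lowest value was shared by 36.1% to 36.7% of probe sets on each array. All 12 measured markers of pro-B cells, among them Ebf1, Pax5, Vpreb1 and Rag1, were above the lowest value, and Enpep, the gene of the BP-1 antigen selected against in the sort, was detected too (11.7 in menin-deficient and 11.4 in control arrays on average). Men1, the deleted gene, had values of 7.85, 8.24, 8.49 and 8.03 in menin-deficient arrays, against 9.59, 9.19, 9.58 and 9.81 in control arrays on its brightest probe set and fell 2.62-fold (limma adjusted p = 0.00617). The groups did not overlap, and whether this probe set lies in the deleted part was not analysed here. The other Men1 probe sets fell 2.60-fold (limma adjusted p = 0.00321) and 1.29-fold (0.0265). Over all tested probe sets 2503 were higher and 1305 lower in menin-deficient arrays at an adjusted p under 0.05, and 1257 were higher and 2220 lower once each array was centred on its median gene. The median gene was 0.11 higher in menin-deficient arrays on the log2 scale as deposited, so the differences given below stand against that shift. In bulk RNA, a change in the share of a cell type and a change in RNA per cell cannot be told apart.

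TGF-beta binds the type II receptor TGFBR2, which recruits and phosphorylates the type I receptor TGFBR1. The receptor complex phosphorylates SMAD2 and SMAD3, while receptors for bone morphogenetic proteins (BMPs) phosphorylate SMAD1 and SMAD5. Both kinds join SMAD4 and enter the nucleus. SMAD7 blocks the receptors and SKIL (SnoN) represses Smad target genes. TGF-beta is known to restrain the growth of B-cell progenitors, and menin is known as a binding partner of SMAD3 in other cell types.

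The promoters of 3 members are shown: Smad1, which fell, Smad5, the other BMP-branch Smad, and Smad3, the menin partner. Menin acts with the histone methyltransferase MLL, which binds CpG-rich DNA, so CpG dinucleotides are in capitals. Each run is the 250 bases before the annotated gene start, 5′ to 3′ on the gene's strand, from RefSeq (GRCm38.p6), and for Smad5 the first of its entries is given.
Smad1, chr8:79399429-79399678, minus strand: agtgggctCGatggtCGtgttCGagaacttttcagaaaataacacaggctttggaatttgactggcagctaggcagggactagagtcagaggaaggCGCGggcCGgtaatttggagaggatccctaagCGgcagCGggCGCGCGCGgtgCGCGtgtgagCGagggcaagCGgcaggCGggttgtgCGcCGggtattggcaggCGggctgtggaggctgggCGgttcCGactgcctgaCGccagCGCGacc
Smad5, chr13:56702760-56703009, plus strand: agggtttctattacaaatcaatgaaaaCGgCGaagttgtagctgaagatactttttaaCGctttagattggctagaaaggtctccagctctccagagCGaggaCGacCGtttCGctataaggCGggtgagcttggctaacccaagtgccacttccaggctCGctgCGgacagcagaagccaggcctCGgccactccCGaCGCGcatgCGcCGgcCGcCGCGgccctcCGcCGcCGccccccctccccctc
Smad3, chr9:63757995-63758244, minus strand: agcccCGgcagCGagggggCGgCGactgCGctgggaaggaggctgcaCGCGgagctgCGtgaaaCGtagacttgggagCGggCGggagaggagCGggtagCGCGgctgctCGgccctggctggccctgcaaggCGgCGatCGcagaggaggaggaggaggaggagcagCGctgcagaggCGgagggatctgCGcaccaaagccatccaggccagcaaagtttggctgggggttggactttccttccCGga
These windows held 25 CpGs in Smad1, 22 in Smad5 and 22 in Smad3, against a median of 6 over 32851 promoter windows of the same length. Fewer CpGs were found in 89.3% of all windows than in that of Smad1, and in 85.2% than in those of Smad5 and Smad3. Promoter entries were searched for 6 of the 10 genes (9 entries, those of Smad1, Smad3, Smad5, Tgfb1, Tgfbr1 and Tgfbr2). Promoters of Smad2, Smad4, Smad7 and Skil were not searched. The counts of CpGs and motifs therefore do not cover Smad4, although that gene had a called probe set. The Smad box, searched as CAGAC on both strands, was present in 42.2% of all windows, in 0 of the windows shown and in 3 of the 9 entries searched (Tgfbr2, the second Tgfbr1 entry and the third Smad5 entry). The palindrome GTCTAGAC was present in 0.167% of all windows and the GC-rich element GGCGCC, which holds 1 CpG of its own, in 9.59%. The palindrome was in 0 of the 9 entries, and GGCGCC was in 2 of them (the first Tgfbr1 entry and the second Smad5 entry) and in 0 of the windows shown. A match or its absence describes only these letters in these windows.

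Of the 26 probe sets, 22 passed the filter on low values and were tested. The other 4 (1 each of Tgfbr2 and Smad3 and 2 of Tgfbr1) lay at or near the lowest value and have no test. Every gene kept at least 1 tested probe set. In the comparison of menin-deficient with control arrays 3 member probe sets fell and 0 rose by limma at an adjusted p under 0.05, that is 13.6% of those tested, against 14.2% of all 26790 tested probe sets. By direction, 4.87% of all tested probe sets fell and 9.34% rose. The share of members called was thus near that of all probe sets. Among the 6698 brightest tested probe sets, where 19.9% were called, 2 of 10 member probe sets were. The member differences ran from -0.60 to 0.43 with a median of -0.02, against a median of 0.04 over all tested probe sets. In 4 of the 22 the groups did not overlap, as in 21.4% of all tested probe sets. At the receptors, TGF-beta branch Smads, Smad7 and Skil no probe set passed the threshold.

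**Figure D1:**
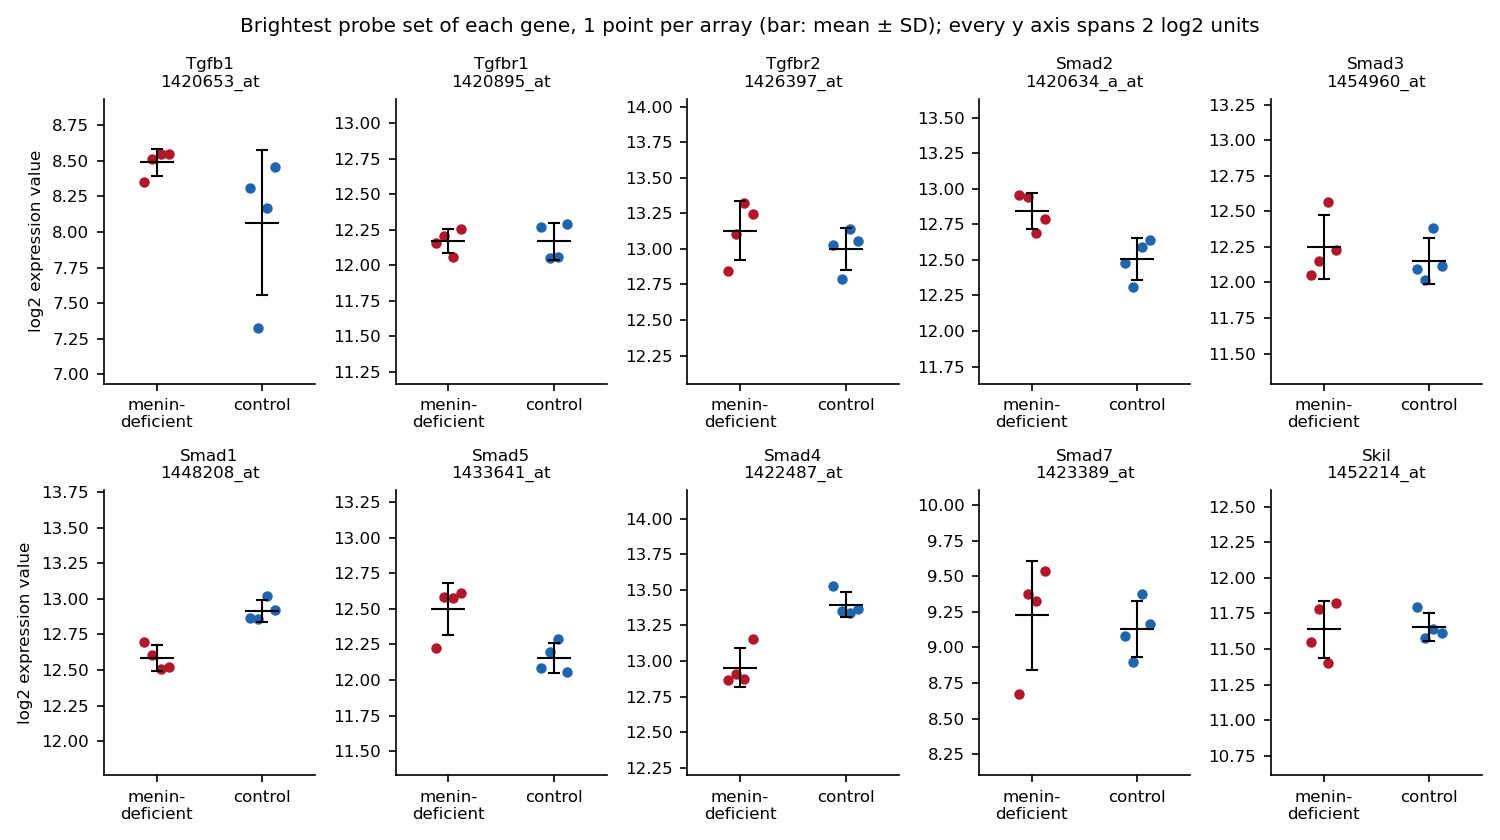
Log2 expression values of the brightest probe set of each gene, 1 point per array, menin-deficient at left and control at right, with mean and SD (n = 4 each). Smad1 and Smad4 lie lower in all 4 menin-deficient arrays than in any control array, Smad2 lies higher in all 4, and the other genes overlap.

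Tgfb1 encodes the ligand made by many blood cells. On probe set 1420653_at its values were 8.35, 8.51, 8.55 and 8.55 in menin-deficient replicates 1 to 4, against 8.31, 7.32, 8.17 and 8.46 in control replicates 1 to 4. Control replicate 2 was the low one, and the groups overlapped. The log2 difference was 0.43 (SE 0.24, limma adjusted p = 0.285, 95% interval -0.14 to 0.99). The dimmer probe set 1445360_at ran the other way, with 5.46, 5.46, 5.44 and 5.55 in menin-deficient arrays, against 5.79, 6.70, 5.53 and 6.27 in control arrays, highest in control replicate 2. Its difference was -0.60 (SE 0.24, limma adjusted p = 0.150). The probe sets of Tgfb1 therefore gave no common direction. Without control replicate 2 the differences were 0.18 on 1420653_at (limma adjusted p = 0.240) and -0.39 on 1445360_at (0.201).

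The receptors were detected in every array. Tgfbr1, the type I receptor kinase, had values of 12.15, 12.20, 12.06 and 12.26 in menin-deficient arrays, against 12.27, 12.05, 12.06 and 12.29 in control arrays on 1420895_at. The ranges nearly coincided. The difference was 0.00 (SE 0.08), and its 95% interval of -0.18 to 0.18 leaves room for changes of that size. Tgfbr2, the receptor that binds the ligand first, had values of 12.84, 13.10, 13.32 and 13.25 in menin-deficient arrays, against 13.03, 12.79, 13.14 and 13.05 in control arrays on 1426397_at. Its difference was 0.13 (SE 0.12, limma adjusted p = 0.528, interval -0.16 to 0.41). The dim Tgfbr2 probe set 1425444_a_at differed by -0.16 (SE 0.17).

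Smad2 transmits TGF-beta and activin signals. On 1420634_a_at it had values of 12.95, 12.94, 12.69 and 12.79 in menin-deficient arrays, against 12.48, 12.31, 12.59 and 12.64 in control arrays. Every menin-deficient array was above every control array, by as little as 0.05 between the nearest. The difference was 0.34 (SE 0.09), which missed the threshold (limma adjusted p = 0.0568). It passed when only the brightest probe set of each gene was fitted (adjusted p = 0.0433) and with array weights (0.0372), and it was 0.21 (adjusted p = 0.152) after centring on the median gene. The second Smad2 probe set, 1442062_at, differed by -0.24 (SE 0.21).

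Smad3, which shares receptors with Smad2 and binds DNA directly, did not pass. Its values on 1454960_at were 12.05, 12.15, 12.56 and 12.23 in menin-deficient arrays, against 12.09, 12.02, 12.38 and 12.12 in control arrays. Replicate 3 was the highest array of each group, and the ranges overlapped almost fully. The difference was 0.10 (SE 0.13, limma adjusted p = 0.657, interval -0.21 to 0.40). The probe set 1450472_s_at, whose suffix marks possible matches to other transcripts, was dimmer and differed by -0.11 (SE 0.22). Smad3 protein was not measured.

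Smad1, a BMP-branch Smad, fell on both of its bright probe sets. On 1448208_at it had values of 12.70, 12.61, 12.50 and 12.52 in menin-deficient arrays, against 12.86, 12.86, 13.02 and 12.92 in control arrays. The groups did not overlap. The mean was 12.6 ± 0.090 in menin-deficient and 12.9 ± 0.075 in control arrays (SD, n = 4 each). Smad1 thus differed by -0.33 (SE 0.06, limma adjusted p = 0.0157), or 1.26-fold lower. On 1459843_s_at the values were 10.30, 9.94, 10.04 and 10.10 in menin-deficient arrays, against 10.32, 10.61, 10.67 and 10.59 in control arrays. Menin-deficient replicate 1 and control replicate 1 nearly met there. The difference was -0.45 (SE 0.10, limma adjusted p = 0.0326), or 1.37-fold lower. This second call was lost when any 1 of 6 arrays was left out (adjusted p of 0.0698 to 0.0872) and without a filter (0.075). The third probe set, 1416081_at, lay at 2.25 to 2.43 in menin-deficient and 2.43 to 2.53 in control arrays, near the bottom of the scale.

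Smad5, the closest relative of Smad1 in this set, stood higher on its brightest probe set. Its values on 1433641_at were 12.23, 12.58, 12.58 and 12.61 in menin-deficient arrays, against 12.08, 12.20, 12.29 and 12.05 in control arrays. Menin-deficient replicate 1 lay inside the control range and the other 3 above it. The difference of 0.34 (SE 0.10) missed the threshold (limma adjusted p = 0.0669) and passed without menin-deficient replicate 1 (0.43, adjusted p = 0.0155). The other Smad5 probe sets differed by 0.10 (SE 0.08, on 1451873_a_at) and -0.29 (SE 0.36, on 1421047_at). On the last, menin-deficient replicate 1 was low at 7.12, where replicates 2 to 4 of its genotype had 7.93, 8.59 and 8.80 and control arrays 8.08 to 8.58.

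The change in Smad1 and that in Smad5 were also set against each other within arrays, which removes any shift common to an array. On their brightest probe sets the difference of differences was -0.68 on the log2 scale, with no overlap between groups (exact two-sided permutation p = 0.0286, the smallest that 70 regroupings allow, 0.0381 adjusted over 4 such comparisons). These 4 comparisons were chosen after the values had been seen, which favours a small p, so the p values are descriptive. The other Smad5 probe sets, which differed by 0.10 and -0.29, were not set against Smad1. The same measure for Smad2 against Smad3 was 0.24 with overlapping groups (exact two-sided permutation p = 0.229, adjusted 0.229).

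**Figure D2:**
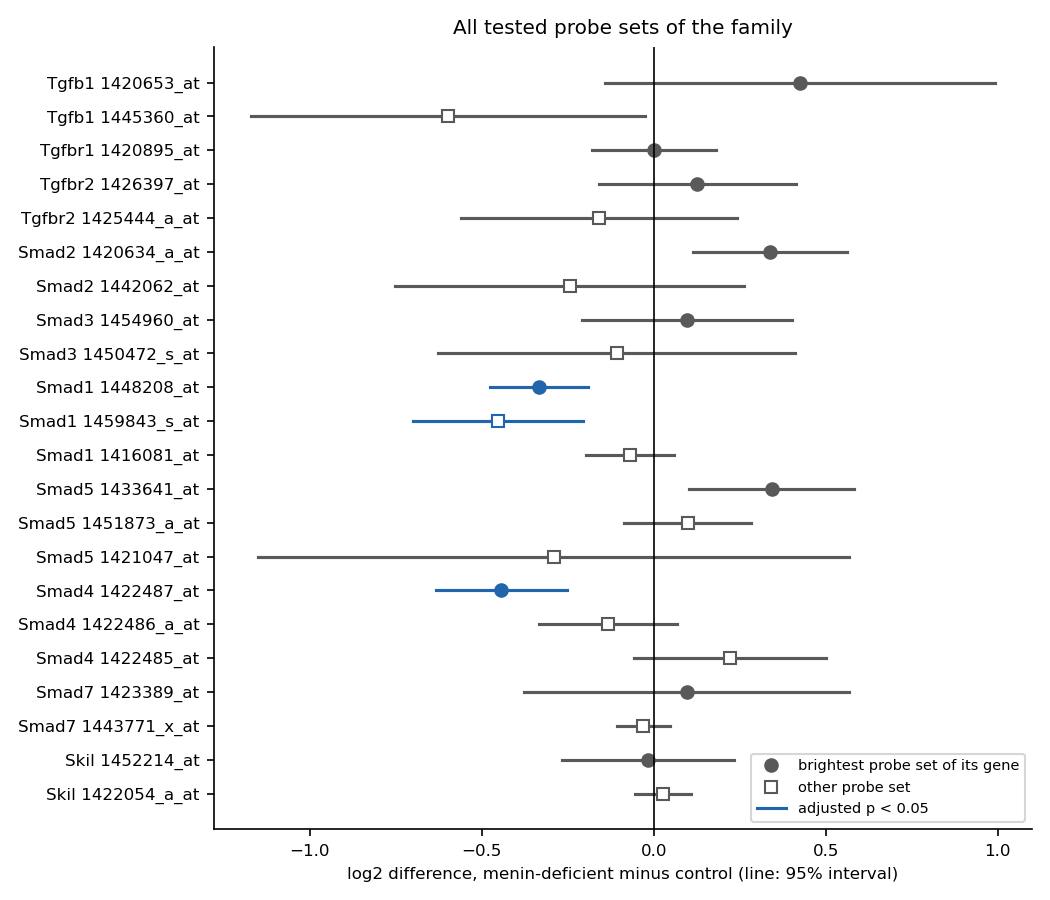
Log2 difference (menin-deficient minus control) of the 22 tested probe sets with 95% intervals, circles for the brightest probe set of a gene, squares for the others, blue for an adjusted p under 0.05. Both bright Smad1 probe sets and 1 of 3 Smad4 probe sets are blue and lie below 0, and Tgfb1, Tgfbr2, Smad2, Smad3, Smad4, Smad5, Smad7 and Skil have probe sets on both sides of 0.

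Smad4, the partner shared by both branches, fell on 1 of its 3 probe sets. On 1422487_at it had values of 12.87, 12.91, 12.88 and 13.16 in menin-deficient arrays, against 13.53, 13.36, 13.34 and 13.36 in control arrays. The groups did not overlap, and menin-deficient replicate 4 lay nearest to the controls. The mean was 13.0 ± 0.14 in menin-deficient and 13.4 ± 0.090 in control arrays (SD, n = 4 each), a difference of -0.44 (SE 0.08, limma adjusted p = 0.0160), or 1.36-fold lower. The call was lost without menin-deficient replicate 2 (-0.43, adjusted p = 0.0518). On 1422486_a_at the values were 12.41, 12.30, 12.66 and 12.59 in menin-deficient arrays, against 12.68, 12.59, 12.57 and 12.66 in control arrays, a difference of -0.13 (SE 0.08, limma adjusted p = 0.339). On 1422485_at they were 12.52, 12.54, 12.71 and 12.83 in menin-deficient arrays, against 12.61, 12.15, 12.50 and 12.47 in control arrays, a difference of 0.22 (SE 0.12, limma adjusted p = 0.261).

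The 3 Smad4 probe sets cite the same source sequence, and all are detected in every array, so a fall of the gene as a whole does not follow from the call on 1 of them. Within arrays the difference on 1422487_at was below that on 1422485_at by -0.67 and below that on 1422486_a_at by -0.31, with no overlap between groups in either case (both at the smallest exact two-sided permutation p, 0.0286, or 0.0381 after adjustment for the 4 comparisons). These pairs were set by the order of the differences in the same arrays, which favours a small p, so the p values are descriptive. Where each probe set lies in the transcript was not analysed here.

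**Figure D3:**
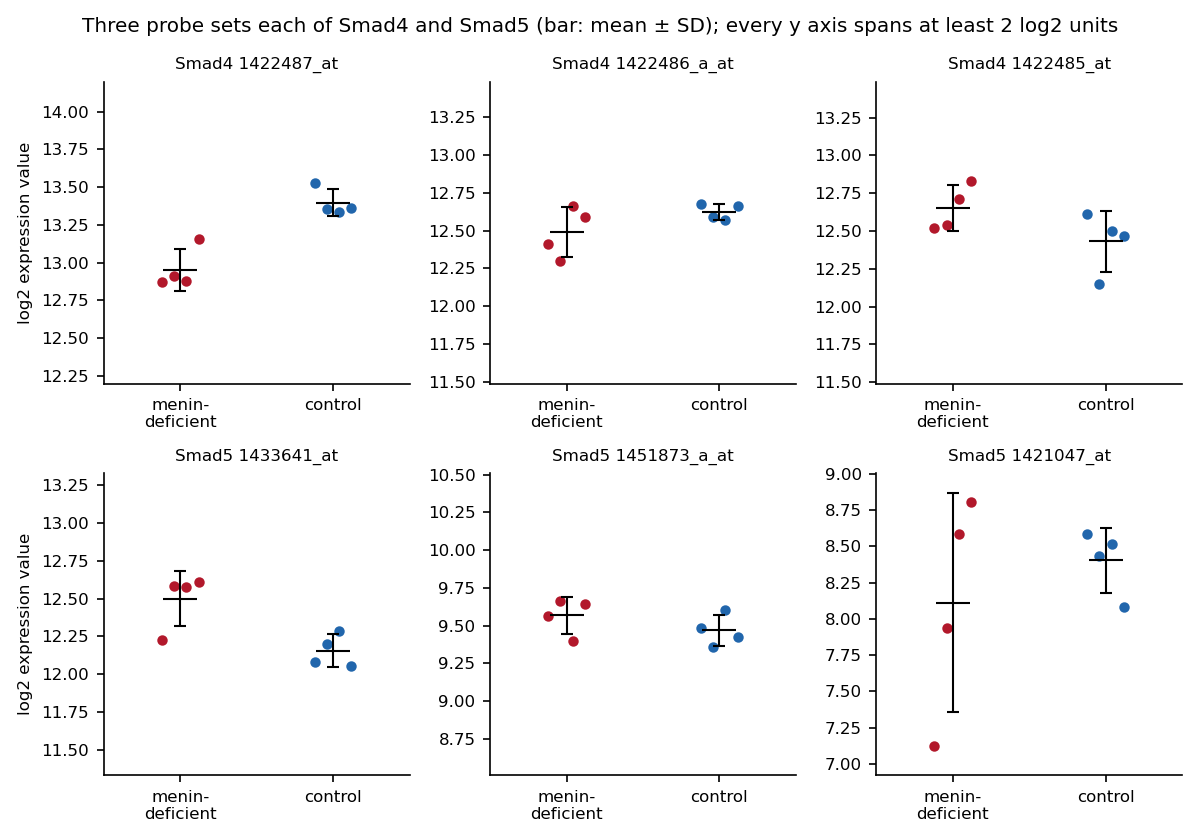
Log2 expression values of the 3 probe sets each of Smad4 (top) and Smad5 (bottom), menin-deficient at left and control at right, 1 point per array with mean and SD (n = 4 each). Only Smad4 1422487_at separates the groups, and Smad5 1421047_at shows the low value of menin-deficient replicate 1 at 7.12.

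The feedback genes gave no call. Smad7, the inhibitory Smad that TGF-beta induces, had values of 8.67, 9.37, 9.32 and 9.54 in menin-deficient arrays, against 9.08, 8.90, 9.37 and 9.17 in control arrays on 1423389_at. Menin-deficient arrays held both the lowest and the highest value. The difference was 0.10 (SE 0.20, limma adjusted p = 0.792, interval -0.38 to 0.57). Skil, the corepressor that is itself a TGF-beta target, had values of 11.55, 11.78, 11.40 and 11.83 in menin-deficient arrays, against 11.79, 11.57, 11.64 and 11.61 in control arrays on 1452214_at. Its difference was -0.02 (SE 0.11, limma adjusted p = 0.956, interval -0.27 to 0.23). The remaining probe set of each gene lay near the lowest value.

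Smad1 gave the lowest p of the family, and the genes whose brightest probe sets followed it most closely over the 8 arrays were Cwf19l1 (Pearson r = 0.991), Tcf7l1 (0.989), Hes5 (0.975), Xpo7 (0.970) and Psat1 (0.968). All 5 were lower on average in menin-deficient arrays, by -0.96, -0.98, -0.72, -0.31 and -0.34 on the log2 scale. The points share the difference between groups, so these values describe likeness over 8 arrays and carry no test. The other Hes5 probe set differed by 0.34, the other Psat1 probe set by 0.21 and the next brightest of Cwf19l1 by -0.01.

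The wider pathway was described by 11 lists of genes, each gene by its brightest probe set. Over all 11885 genes so taken 18% were called, 13.6% higher and 4.38% lower, with a median difference of 0.11. After centring on the median gene 14.1% of these genes were called, and of all called probe sets 36.2% were higher. Counts in the lists stand beside these shares. Among 8 Smads 6 were tested, Smad1 and Smad4 fell and 0 rose, with a median difference of 0.10. Smad6 and Smad9 were near the lowest value in both groups (Smad6 at 2.11 in menin-deficient and 2.08 in control arrays, Smad9 at 2.08 in both). Of 25 ligands on the array 21 lay within 0.5 of the lowest value in both groups. None of the 11 tested passed by limma, and the lowest p values belonged to Lefty1, a Nodal antagonist (difference 0.53, adjusted p = 0.147), and Bmp1, a procollagen protease (0.28, adjusted p = 0.210). The tested ligands had a median difference of 0.05.

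**Figure D4:**
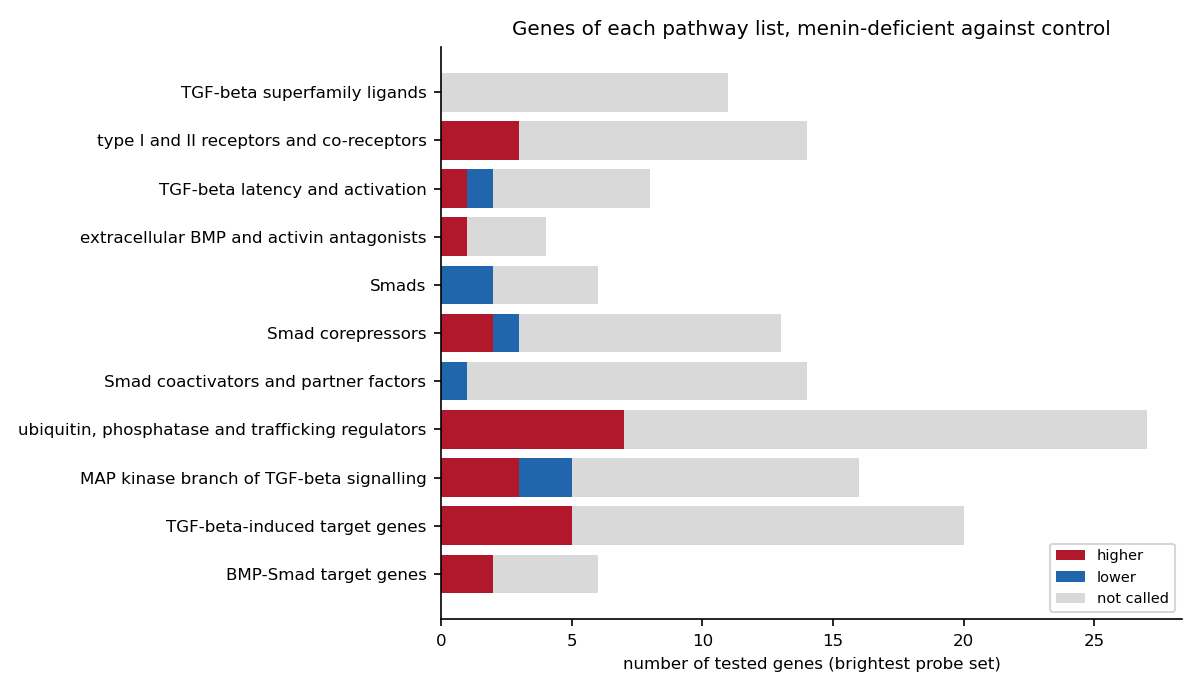
Number of tested genes in each pathway list that were higher (red), lower (blue) or not called (grey) in menin-deficient against control arrays, each gene by its brightest probe set. No ligand was called, 2 of 6 Smads were lower, and 7 of 27 ubiquitin, phosphatase and trafficking regulators were higher.

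Among receptors and co-receptors 3 of 14 rose and 0 fell (median difference 0.12), and 1 was higher after centring on the median gene. Acvr1, a type I receptor for BMPs and activins, had values of 7.93, 7.63, 7.38 and 7.75 in menin-deficient arrays, against 6.54, 6.07, 7.10 and 6.93 in control arrays. The groups did not overlap, and the gene rose 2.02-fold (difference 1.01, SE 0.24, limma adjusted p = 0.0342), a call kept under 10 of 18 alternatives. Bambi, a decoy receptor without a kinase domain, was higher by 0.87 (SE 0.23, limma adjusted p = 0.0482), a call kept under 5 of 17 alternatives. Rgmb, a BMP co-receptor, was higher by 0.46 (limma adjusted p = 0.0280), but at means of 2.54 in menin-deficient and 2.08 in control arrays it lay at background. Tgfbr3, the co-receptor betaglycan, named after its values were seen, differed by 0.64 (limma adjusted p = 0.0532). Eng, named in the same way, was not called on its brightest probe set (0.49, limma adjusted p = 0.166), while a dimmer one was higher by 0.655 (0.0215).

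Outside the cell surface, Fstl1, a secreted BMP-binding protein, was the only 1 of 4 tested antagonists to pass. It had values of 7.19, 7.74, 8.11 and 7.78 in menin-deficient arrays, against 4.97, 5.28, 4.88 and 5.91 in control arrays. It rose 5.45-fold (difference 2.45, SE 0.28, limma adjusted p = 0.00444), and its other probe set was higher by 1.75 (adjusted p = 0.0404). The list's median difference was 0.49. Of 8 genes of TGF-beta latency and activation 1 rose and 1 fell (median -0.12). Emilin1, an extracellular glycoprotein that limits the processing of pro-TGF-beta, rose 2.09-fold (10.3 ± 0.19 in menin-deficient and 9.21 ± 0.12 in control arrays, SD, n = 4 each, limma adjusted p = 0.00330), and its other probe set was higher by 1.14. Itgav, the alpha-V subunit of integrins that release latent TGF-beta, fell by 0.30 on the log2 scale (limma adjusted p = 0.0490), a call kept under 6 of 18 alternatives. Its other tested probe sets differed by -0.002, 0.05 and 0.01. Itgb6 and Itgb8, of the same list, were at the lowest value in both groups (2.08).

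Nuclear partners of the Smads are given beside the shares over all genes (13.6% higher and 4.38% lower). Of 13 corepressors 2 rose and 1 fell (median 0.14), and 1 was higher and 2 lower after centring on the median gene. Zeb2, also known as Smad-interacting protein 1, had values of 12.28, 12.40, 11.57 and 12.35 in menin-deficient arrays, against 13.55, 13.15, 13.10 and 12.87 in control arrays. It fell 2.03-fold (difference -1.02, SE 0.22, limma adjusted p = 0.0285), and a second Zeb2 probe set was lower by -0.69 (adjusted p = 0.0294). The remaining Zeb2 probe sets differed by -0.23, -0.22 and -0.19 and did not pass. The brightest Zeb2 probe set kept its call under 11 of 18 alternatives. Ctbp2 rose by 0.58 on the log2 scale (limma adjusted p = 0.00428), while its other probe set differed by -0.39 (adjusted p = 0.136). Sin3a was higher by 0.31 (adjusted p = 0.0467), but by 0.18 (adjusted p = 0.161) after centring on the median gene, and its call held under 4 of 18 alternatives. Of 14 coactivators and partner factors 0 rose and 1 fell (median -0.19), and 3 were lower after centring. The gene that fell was Ep300, the acetyltransferase p300, by 0.60 on the log2 scale (SE 0.13, limma adjusted p = 0.0290). Jun and Yy1, named after their values were seen, were not called on their brightest probe sets (-0.24 and -0.18). A dimmer probe set was higher by 0.93 for Jun (limma adjusted p = 0.0189) and lower by -0.26 for Yy1 (0.043). Jund, an AP-1 factor that binds menin, was named after its values were seen. It differed by -1.08 (SE 0.29, limma adjusted p = 0.0520), with a mean of 9.85 ± 0.13 in menin-deficient and 10.9 ± 0.62 in control arrays (SD, n = 4 each), and the groups did not overlap.

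Among 27 ubiquitin, phosphatase and trafficking regulators 7 rose and 0 fell (median 0.18), but 2 were higher and 2 lower after centring on the median gene. Eid2, an inhibitor of Smad-dependent transcription, rose 2.68-fold (limma adjusted p = 0.0111). Ldlrad4, which keeps SMAD2 and SMAD3 from the receptor, rose 1.94-fold on its brightest probe set (limma adjusted p = 0.00966), and its 2 other tested probe sets differed by 0.21 and 0.26. Strap and Stub1, both negative regulators of the pathway, were higher by 0.31 and 0.27 (adjusted p = 0.0175 and 0.0187), and both calls were lost after centring on the median gene. The other Strap probe sets differed by -0.34 and -0.12. The remaining 3 were Ranbp3, Trim33 and Ppp1r15a, named after their values were seen, and a dimmer Ranbp3 probe set was lower by -0.68 (limma adjusted p = 0.0188). Smurf1, Usp15 and Fkbp1a, named in the same way, were not called on their brightest probe sets. A dimmer probe set was higher by 1.27 for Smurf1 (limma adjusted p = 0.0165), 0.60 for Usp15 (0.0335) and 0.34 for Fkbp1a (0.0201). In the MAP kinase branch 3 of 16 rose and 2 fell (median 0.08), with 1 higher and 2 lower after centring. Traf4, a receptor adaptor, rose 2.33-fold (limma adjusted p = 0.0201) and Rock1, a kinase downstream of RhoA, fell 1.39-fold (limma adjusted p = 0.0126), while 4 other Rock1 probe sets did not pass. Tab2 was lower by -0.38, with 0.01 on its other probe set, and Traf6 higher by 0.35 on their brightest probe sets. The Traf6 call held under 7 of 18 alternatives and was lost after centring on the median gene (0.22, limma adjusted p = 0.135). Differences of 0.45, -0.17 and -0.15 were found on the remaining Traf6 probe sets, and none of these passed. Tab3, named after its values were seen, was the other gene that rose.

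Of 20 genes known as TGF-beta targets 5 rose and 0 fell (median 0.28), and 5 were higher and 2 lower after centring on the median gene. Cdkn1c and Cdkn1a, inhibitors of cyclin-dependent kinases, rose by 1.09 and 1.07 on the log2 scale (limma adjusted p = 0.00440 and 0.00891). The other Cdkn1a probe set differed by 0.38 (limma adjusted p = 0.108). Klf10, a zinc finger factor named for its early response to TGF-beta, had values of 11.28, 11.34, 11.43 and 11.56 in menin-deficient arrays, against 10.84, 10.94, 10.85 and 10.84 in control arrays. It rose 1.45-fold (SE 0.07 on the log2 scale, limma adjusted p = 0.00552). The other genes that rose were Ldlrad4 and Rhob, and Rhob was named after its values were seen. Smad7, Skil and Pmepa1, which are among the most direct Smad targets, differed by 0.10, -0.02 and 0.02 and did not pass, Pmepa1 at the dim levels of 3.41 in menin-deficient and 3.39 in control arrays.

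Of 6 tested BMP-Smad target genes 2 rose and 0 fell (median 0.25), Id1 and Bambi. Id1, an inhibitor of basic helix-loop-helix factors and a direct target of SMAD1 and SMAD5 in other cell types, had values of 5.85, 6.25, 6.48 and 5.95 in menin-deficient arrays, against 4.06, 4.59, 3.94 and 4.27 in control arrays. The groups lay far apart, and Id1 rose 3.78-fold (difference 1.92, SE 0.19, limma adjusted p = 0.00314). It passed under all 17 alternatives that tested it. Id2 and Id3, which antagonise E proteins in lymphocytes, were named after their values were seen. Id3 averaged 13.2 ± 0.11 in menin-deficient and 12.8 ± 0.13 in control arrays (SD, n = 4 each), a difference of 0.31 (SE 0.08, limma adjusted p = 0.0512). The brightest Id2 probe set differed by 0.19 (adjusted p = 0.664), and another was higher by 1.24 (adjusted p = 0.0310).

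**Figure D5:**
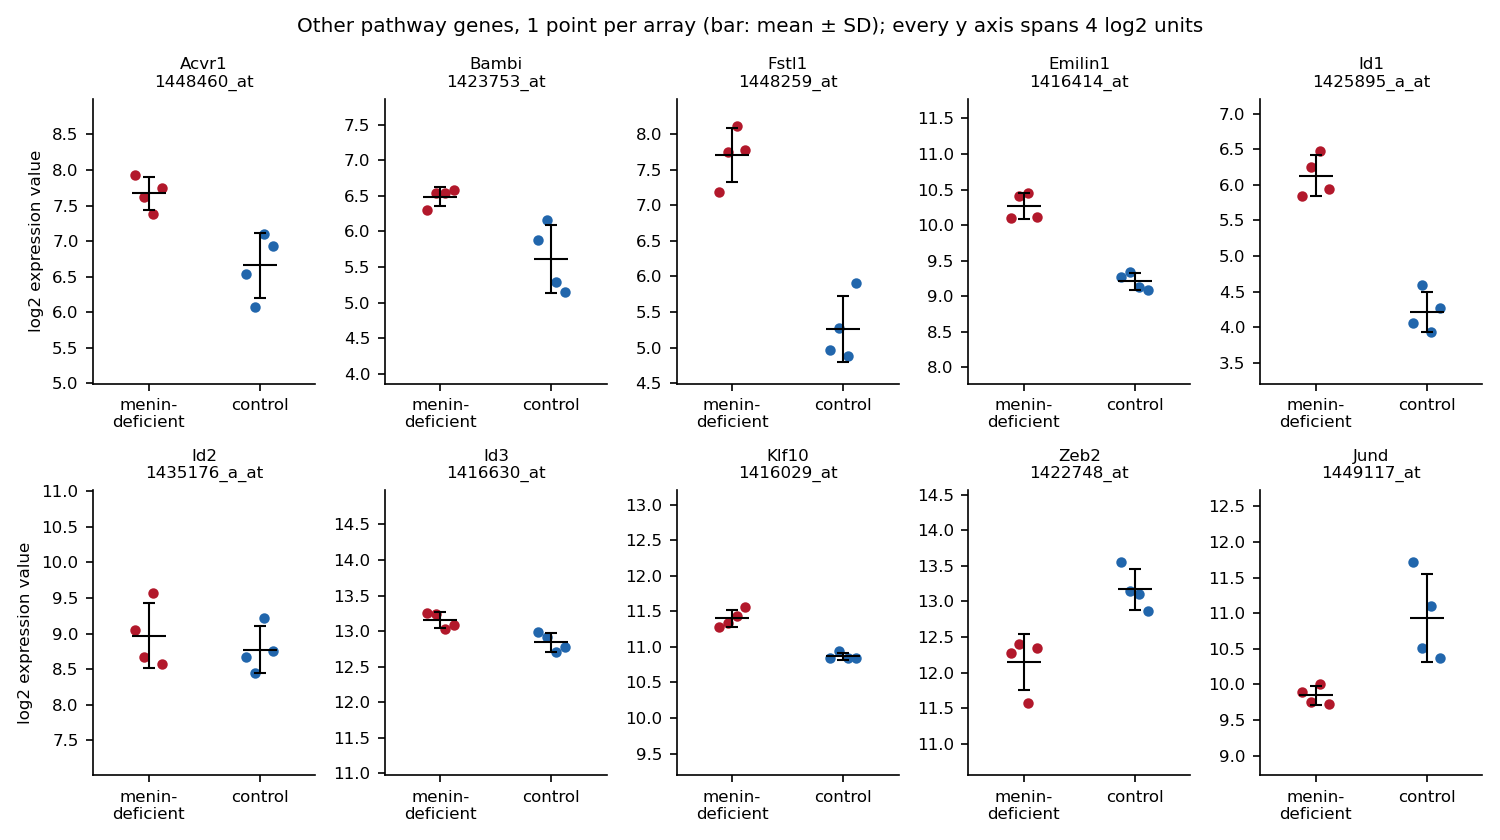
Log2 expression values of 10 other pathway genes on their brightest probe sets, menin-deficient at left and control at right, 1 point per array with mean and SD (n = 4 each). The groups separate for all of them but Id2, with Zeb2 and Jund lower and the others higher in menin-deficient arrays, and Id3 and Jund miss the threshold.

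Marker counts stand beside 13.6% of all genes higher and 4.38% lower. Of 12 tested pro-B cell markers 2 rose and 1 fell. Markers of other cells were counted in the same way. Of 6 tested T-cell markers 4 rose, and the mean of the 9 on the array was 6.29 to 6.41 in menin-deficient and 5.44 to 5.68 in control arrays, with Cd3d, Cd3e and Cd4 within 0.5 of the lowest value in both groups. Of 8 tested NK-cell markers 3 rose, with list means of 6.47 to 7.30 in menin-deficient and 5.64 to 5.98 in control arrays. Of 10 plasmacytoid dendritic cell markers 2 rose (7.54 to 7.80 in menin-deficient and 6.92 to 7.23 in control arrays), and of 9 monocyte and macrophage markers 2 rose (7.09 to 8.40 in menin-deficient and 7.12 to 7.50 in control arrays). No marker of neutrophils, megakaryocytes and platelets, erythroid cells, or stroma and endothelium passed. Neutrophil list means were nonetheless 9.33 to 10.1 in menin-deficient and 9.05 to 9.64 in control arrays. Those of erythroid markers were 7.80 to 8.55 in menin-deficient and 7.93 to 8.60 in control arrays. The megakaryocyte list lay at 3.30 to 3.57 and the stroma list at 4.17 to 4.57 over both groups. Of 7 tested plasma cell markers 1 rose and 2 fell. The part of these markers in the differences of Smad1, Smad4, Acvr1, Fstl1 and Id1 was not tested.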

How the data were processed

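The deposited table holds log2 values for 45037 probe sets besides 64 control probe sets on 8 arrays. The scale was judged from its range. Total RNA was amplified once and labelled with biotin, per the labels' protocols. MAS5 and GCRMA are listed in the submitters' processing notes, with no version. Which of the pair gave the deposited log2 values is not stated there. Groups and replicate numbers come from the titles, which with the descriptions call the samples biological replicates. By the platform annotation 34945 probe sets have 1 symbol, 932 several and 9160 none, and only the first were named. The fit took the 26790 probe sets that exceeded the 40th percentile of the array on 4 or more of the 8 arrays. That percentile lies just above the lowest value, so probe sets near background pass. Differences came from limma 3.58.1 under R 4.3.3 (lmFit, then eBayes) without covariates, and adjusted p values are Benjamini-Hochberg over all 26790 probe sets, threshold 0.05. An alternative adjusts over the probe sets it fits, and the permutation tests over their 4 comparisons. A gene of a list was read on its brightest tested probe set (highest mean over 8 arrays). Intervals are 95% and not adjusted. The number of arrays limits the precision.

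Named were all member probe sets, Men1, the 4 called genes with the lowest p in each pathway list (up to 2 where none was called), and the 5 genes most like the member with the lowest p. Members and lists were chosen with earlier results of these data known. The fit was tested on simulated data, where it called 8% of true log2 changes of 0.3 and 28% of 0.5. For changes of 1 and 2 it called 78% and 92%. Only 50 probe sets of each size were changed there, so the shares need not hold for these data. Deviations of arrays with the same replicate number had correlations of -0.260 to 0.081, which cannot show whether the numbers mark a pairing. Correlations between arrays were 0.990 to 0.995 within groups and 0.985 to 0.991 between them. Alternatives were other scalings, filters, variance priors, array weights, the replicate block, the brightest probe set of each gene alone, and leaving out each array. Centring on the median gene was added after seeing the data. Plots used matplotlib 3.10.9 (Python 3.11.15).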

Additional observations from a re-analysis of the deposited data

Results flagged for a closer look

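In 14 of 94 groups the gap between 1 array and its nearest neighbour, as a share of the group's range, exceeded Dixon's 95% critical value (47 probe sets, both genotypes). Chance flags about 1 in 20 groups.

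Among members, menin-deficient replicate 1 was low for Smad5 1433641_at (12.23, beside 12.58 to 12.61), menin-deficient replicate 4 was high for Smad4 1422487_at (13.16, beside 12.87 to 12.91) and control replicate 1 was high for the same probe set (13.53, beside 13.34 to 13.36). Menin-deficient replicate 4 was high for Tgfb1 1445360_at (5.55), where the other 3 lay between 5.44 and 5.46. For Smad1 1416081_at (2.53 in control replicate 1 and 2.25 in menin-deficient replicate 4) and Smad7 1443771_x_at (2.08 in control replicate 2 and 2.13 in menin-deficient replicate 1) the values lay near the lowest of the table.

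Among other pathway genes, menin-deficient replicate 1 was low for Bambi (6.30) and Rgmb (2.23), and menin-deficient replicate 3 was low for Zeb2 (11.57). Control replicate 4 was low for Bmp1 (4.36), control replicate 3 was high for Eid2 (9.86) and control replicate 2 was high for Klf10 (10.94).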

How the results depend on the processing

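The count of changed probe sets, 3808 as reported, was 1935 without a filter, 2536 with the brightest probe set of each gene alone and 1083 with the replicate number as a block. Leaving out 1 array gave 1796 to 3375, lowest with menin-deficient replicate 2 left out, 1990 without control replicate 1 and 2424 with menin-deficient replicate 4 left out. The 3 lower member probe sets were 0 with the replicate block (adjusted p = 0.0886 and 0.133 for Smad1 and 0.0721 for Smad4) and 1 to 3 when 1 array was left out, 1 without menin-deficient replicate 2. Whether the replicate numbers mark a pairing is not known. No menin-deficient array correlated best with the control array of its own number. Against 0 higher member probe sets as reported, 1 was higher with the brightest probe set of each gene alone (Smad2), 2 with array weights (Smad2 and Smad5), and 0 to 1 when 1 array was left out (Smad5). Smad1 1448208_at kept its call under 17 of 18 alternatives (-0.46 to -0.30), 1459843_s_at under 9 of 17 and Smad4 1422487_at under 16 of 18 (-0.57 to -0.40). The calls were 1779 higher and 1663 lower after a repeat quantile normalization, and 1700 and 1552 after centring on the median tested probe set. The causes were not tested. No called member reversed. Values near the lowest of the table limit what the dim probe sets show.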

Other observations

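Bmp4, a BMP ligand named after its values were seen, differed widely between arrays of the same group. It was 4.31, 7.22, 2.08 and 7.16 in menin-deficient replicates 1 to 4, against 4.61, 2.08, 4.22 and 2.34 in control replicates 1 to 4. Its difference of 1.88 had an SE of 1.29 (limma adjusted p = 0.377), and 1 array of each group was at the lowest value.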
